A study of Homo sapiens with 4 samples.

Results

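The circular RNAs described here came from 133 human genes with a ZNF symbol, the largest naming group of zinc finger genes. A gene was included when its symbol was ZNF followed by digits and an optional final letter, and when the circles naming that gene and no other, antisense circles left aside, held at least 10 counts over the 4 libraries. ZNF609 was left out by the same rule. Of 265 ZNF genes in the deposited table, 254 had at least 1 count and 133 met the rule, out of 5911 host genes with at least 10 counts. The summed count therefore chose the genes, and the totals given below are a description. At the limit of the rule, ZNF30 (0, 7, 0 and 3 counts), ZNF300 (10, 0, 0 and 0) and ZNF330 (1, 0, 1 and 8) were inside with 10 counts. ZNF235 (7, 2, 0 and 0), ZNF630 (8, 1, 0 and 0) and ZNF746 (8, 0, 0 and 1) were outside with 9. In every list of 4 values the order is control replicate 1, control replicate 2, knockdown replicate 1 and knockdown replicate 2.

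All 4 libraries came from radioresistant MDA-MB-468 cells, a derivative of a human line established from breast cancer that had received a total dose of 50 Gy in fractions. The control group (shCtrl, n = 2) carried a control short hairpin RNA, and the knockdown group (shHNRNPL, n = 2) carried a hairpin against HNRNPL, which binds RNA and takes part in the control of splicing. Unirradiated cells were not analysed here, so both groups share the radiation history, and the reduction of HNRNPL itself rests on the labels. Total RNA was copied with Induro, a reverse transcriptase that can run around a circle several times, amplified with phi29 polymerase and read on nanopores. A back splice joins the end of an exon to the start of the same or an earlier exon. Each count here stands for a read with a circular junction. In circles listed as intron circles that junction need not join annotated exons.

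Most ZNF genes encode C2H2 zinc finger proteins, which bind DNA through tandem fingers. Many also carry a KRAB domain, which recruits the co-repressor TRIM28 and through it histone methylation and heterochromatin proteins, often over retroelements. The whole array of fingers usually lies in 1 long exon near the 3′ end of the gene, and a large share of the KRAB genes sits in tandem clusters on chromosome 19. How reads that fit several members of such a cluster were assigned is not given in the sources used here, so counts of close paralogs are uncertain.

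The 4 libraries held 472428, 556578, 282737 and 390547 counts, so both knockdown libraries were shallower than both controls. A count of 0 allows up to 3 counts, or 0.635, 0.539, 1.06 and 0.768 per 100000 library counts. Control replicate 1 stood apart in content: intron circles took 22.8% of the counts of the other host genes there, against 11.3%, 10.6% and 10.8% in the remaining libraries. Circles of epithelial and basal breast marker genes had counts in 5 of 8 genes (140, 74, 24 and 39 in sum). KRT14, KRT17 and CDH3 were at 0. Luminal markers had counts in 2 of 3 (25, 5, 3 and 1), fibroblast markers in 1 of 3 (4, 0, 0 and 0), and the 3 leukocyte markers were at 0. Counts of circles do not measure the linear transcripts of these genes.

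The 133 genes held 6752, 9487, 7301 and 9443 counts, together 32983 of 1702290 counts, or 1.94%. Their counts fell on 1735 circles, of which 1108 were exon circles and 627 were intron circles. Most circles were rare. In all, 959 were seen in 1 library, 220 were seen in all 4, and the 279 with at least 10 counts held 28541 counts. The counts were also concentrated in few genes: the 10 most counted genes held 76.7% of them, 27 genes had at least 100 counts, 81 had between 10 and 39, and the median gene had 28. The numbers of these genes with a count were 128, 120, 116 and 115 in the 4 libraries. In control replicate 1, 38 of the 133 genes (28.6%) had over 50% of all their counts, which compares with 26.9% of all 5911 host genes. The 52 genes on chromosome 19 had 2173 counts, 6.59% of the total, with a median of 26 counts per gene against 33 for the genes elsewhere.

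Few bases of the junctions themselves were deposited. The file gives the short stretch that is the same on both sides of a back splice, within which the junction cannot be placed to the base. They are shown for the most counted circle of 3 much counted genes and for 2 junctions with long stretches, because they say how closely a ZNF junction can be placed. Read 5′ to 3′ on the gene's strand, with an AG that precedes a G in capitals, they were:
ZNF644, most counted circle: tcAGgt
ZNF782, most counted circle: AGg
ZNF638, most counted circle: ag
ZNF131, intron circle at chr5:43136750-43170897: gtgctgggattacAGg
ZNF573, intron circle at chr19:37755562-37759325: cttcAGgtcaattaaaatagagtt
The first 3 of these stretches hold at most 6 bases. The ZNF131 stretch of 16 bases has the letters found in Alu repeats, and that circle had 29, 74, 63 and 100 counts. The longest of the 5, the ZNF573 stretch of 24 bases, belongs to a circle with 0, 1, 1 and 1 counts. Stretches of 8 or more bases occurred in 1 of 1108 ZNF exon circles (0.0903%, against 0.157% of those of other host genes) and 4 of 627 ZNF intron circles (0.638%, against 0.164%). The 4 intron circles held 272 counts, of which the ZNF131 circle held 266. They made up 9.25% of ZNF intron circle counts with that circle and 0.204% without it, against 0.136% for other host genes.

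Long exons dominated the ZNF circles. In the 4 libraries, 66.3%, 70.3%, 80.9% and 79.0% of the exon circle counts of these genes lay in circles that held an exon of at least 1000 nt. For all other host genes the values were 25.8%, 22.3%, 28.3% and 25.5%. The ZNF value was the higher one in each library. Leaving out the 10 most counted ZNF genes gave 53.7%, 48.1%, 60.0% and 61.6%, so the difference was also present among the lesser ones. The exon structure was that of the first isoform the file lists for a circle. Circles that list 1 isoform held 49.1% of the ZNF exon circle counts, and over these alone the share with such an exon was 59.3%, 62.5%, 73.4% and 71.7%, against 26.6%, 22.7%, 28.2% and 25.9% for the other host genes. Over genes, 69 of the 101 ZNF genes with at least 10 exon circle counts (68.3%) had over 50% of those counts in circles with such an exon, against 980 of 4419 other host genes (22.2%). On chromosome 19 this held for 29 of 37 genes (78.4%). The count-weighted median of the longest exon was 1519, 1652, 2363 and 1693 nt for ZNF genes and 355, 281, 343 and 305 nt for the others. ZNF circles held few exons, with a median of 3 in each library against 5 or 6.

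**Figure D1:**
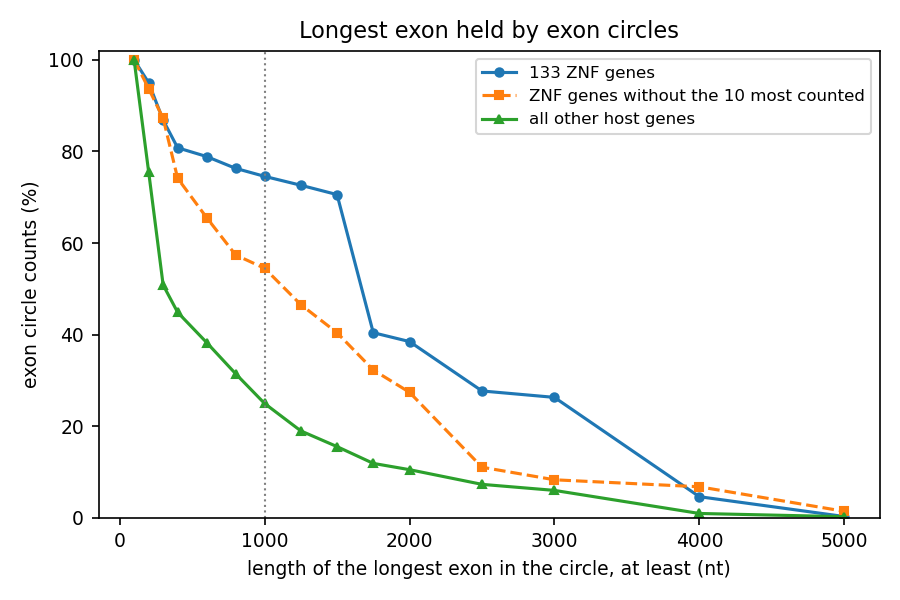
Share of exon circle counts (%, summed over the 4 libraries) against the length in nt that the longest exon of the circle reaches, for the 133 ZNF genes, for the same genes without the 10 most counted, and for all other host genes. At 1000 nt, marked by the dotted line, the values are 74.6%, 54.5% and 25.0%.

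The circles lay inside the genes and away from their ends. Of the ZNF exon circle counts, 98.7% came from circles within the RefSeq span of the gene (GRCh38.p14), 99.1% from circles that began more than 1000 nt after the gene start, and 96.4% from circles that ended more than 1000 nt before the gene end. Intron circles took 19.5%, 6.23%, 5.79% and 6.46% of the ZNF counts, so control replicate 1 stood apart here as it did for the other host genes. Of the 133 genes, 9 had no exon circle and 22 had exon circles only.

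As a group the ZNF genes took a larger share of the knockdown libraries, and 2 genes accounted for it. The ZNF share was 1429, 1705, 2582 and 2418 per 100000 library counts, a mean of 1567 ± 195 in controls and 2500 ± 116 in knockdowns (SD, n = 2 each), a ratio of 1.60. Both knockdown libraries lay above both controls, which gives p = 0.33 in the exact two-sided permutation test, the smallest that 2 against 2 allows. ZNF644 and ZNF800 together held 5.52%, 22.6%, 48.5% and 44.4% of the ZNF counts. Without these 2 genes, which were taken out after their values had been seen, the share was 1350, 1319, 1330 and 1344 per 100000, with means of 1335 ± 21.9 and 1337 ± 10.3 and a ratio of 1.00. The shares of the remaining 131 genes overlapped between the groups and differed by less than the spread between the controls.

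**Figure D2:**
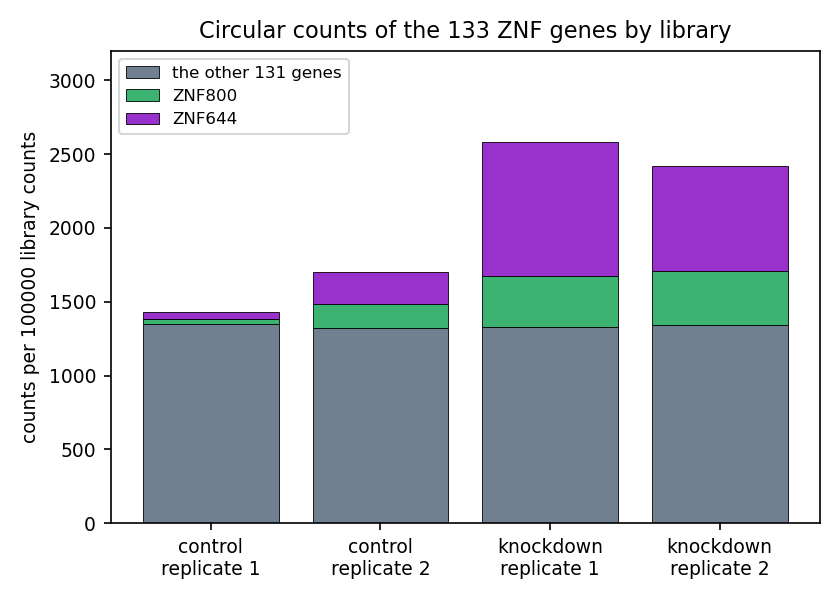
Circular counts of the 133 ZNF genes per 100000 library counts in each of the 4 libraries, stacked as ZNF644, ZNF800 and the other 131 genes. The lower block lies between 1319 and 1350 in every library, while the total runs from 1429 in control replicate 1 to 2582 in knockdown replicate 1.

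The same 2 genes moved the other summary values. The count-weighted median length of ZNF circles was 1837, 1840, 2472 and 2177 nt (exact permutation p = 0.33), and without them 1768, 1676, 1840 and 1679 nt. Genes on chromosome 19 held 11.5%, 6.40%, 4.68% and 4.73% of the ZNF counts (exact permutation p = 0.33), and without ZNF644 and ZNF800 12.2%, 8.27%, 9.10% and 8.52%, where the groups overlap. The intron circle share did not separate the groups (exact permutation p = 0.667).

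Gene by gene, no ZNF gene passed the threshold between knockdown and control. Of the 133, 0 were higher and 0 were lower at an adjusted p under 0.05 in edgeR's quasi-likelihood test, where 1.47% of all host genes were higher and 0.0338% were lower. At an unadjusted p under 0.05, 9 were higher (8.12% of all host genes) and 4 were lower (6.89%). DESeq2 on the same counts called 3 higher and 0 lower, which is 2.26% of the ZNF genes against 2.76% of all host genes. These counts changed with the control left out. Without control replicate 1, 23 genes passed (17 higher and 6 lower), which is 17.3% against 21.4% of all host genes. Without control replicate 2, 43 passed (22 higher and 21 lower), which is 32.3% against 35.8%. With either knockdown replicate left out none passed, against 0.727% and 0.237% of all host genes. In those fits the lone library of a group is assumed to vary like the other group, and a gene that passes in a fit with 1 control is read against these shares. The median log2 fold change of knockdown over control was −0.15 for ZNF genes and −0.27 for all host genes. Scaling to library totals in place of TMM, which scales on the trimmed mean of gene ratios, moved these to −0.53 and −0.67.

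The direction differed between the more and the less counted genes. The fold was above 0 for 60 genes and below 0 for 73, so 45.1% were above 0 against 39.9% of all host genes. Among the 27 genes with at least 100 counts the median was 0.47, with 18 above 0, against 0.01 for the 2043 host genes of that depth. For the 81 genes with 10 to 39 counts it was −0.30, against −0.68. Genes on chromosome 19 had a median of −0.18 (21 of 52 above 0), and genes elsewhere −0.12 (39 of 81). Among the 52 ZNF genes with at least 40 counts, both knockdown libraries lay above both controls in 9 genes (19.5% of all such host genes) and below both in 12 (39.1%).

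**Figure D3:**
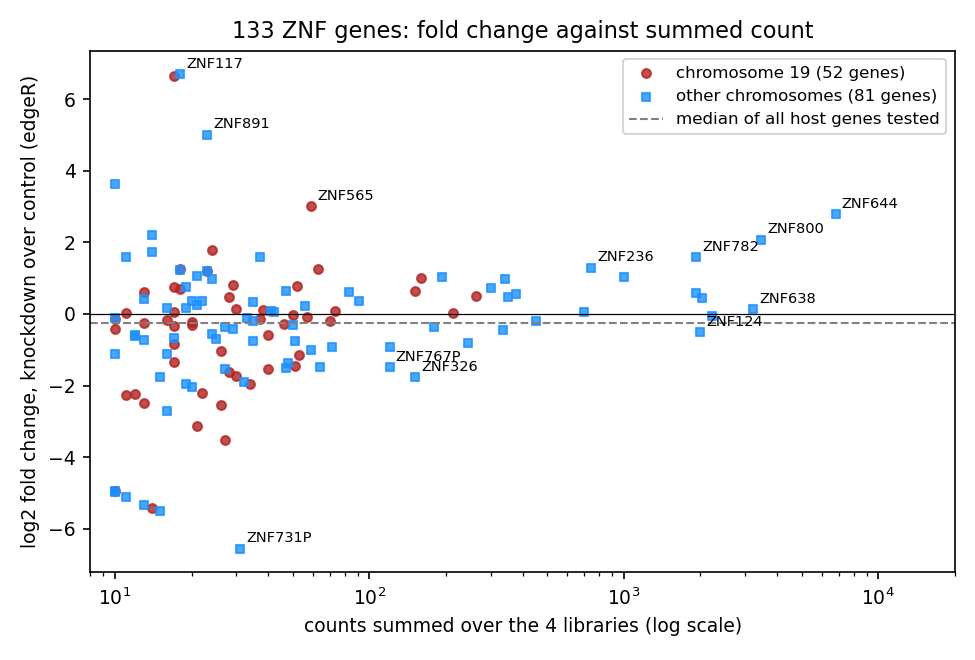
Log2 fold change of knockdown over control (edgeR) against the counts summed over the 4 libraries (log scale) for each of the 133 ZNF genes, with genes on chromosome 19 as circles and others as squares. No point passed the adjusted threshold, the widest values belong to genes with few counts, some of them with 0 counts in a group, and the dashed line is the median of all host genes at −0.27.

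ZNF644, a zinc finger partner of the histone methyltransferases G9a and GLP, was the most counted of these genes. Its counts were 232, 1231, 2564 and 2774, or 49.1, 221, 907 and 710 per 100000. Both knockdown libraries were higher than both controls, and control replicate 2 was far above control replicate 1. The means were 135 ± 122 and 809 ± 139 per 100000 (SD, n = 2 each), the log2 fold change was 2.79 ± 0.80 (SE), and the edgeR adjusted p was 0.142. Leaving out control replicate 1 gave a fold change of 2.04 and leaving out control replicate 2 gave 4.63, and both passed the threshold.

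Nearly all of these counts came from circles that hold the same 3038-nt exon. They made up 72.8%, 92.4%, 96.4% and 95.8% of the gene's counts. The most counted circle, chr1:90937485-90982370 on the minus strand, joined exons of 606, 3038 and 61 nt into 3705 nt and held 42.6% of the counts, as 67, 386, 1171 and 1273. A shorter one, chr1:90937485-90941309, left out the 61-nt exon and had 31, 190, 582 and 618 counts. The one at chr1:90916640-90982370 reached further into the gene, to 4159 nt, with 41, 259, 277 and 277. The first and second had log2 fold changes of 3.22 ± 0.64 and 3.23 ± 0.66, and the third 1.69 ± 0.64, with edgeR adjusted p of 0.114, 0.119 and 0.335. In the third the higher control had 259 counts against 277 in each knockdown. Its library was the deepest, and per 100000 library counts it lay below both knockdowns.

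ZNF800, a transcriptional repressor known from the control of enteroendocrine cell fate, came second. It had 141, 913, 978 and 1420 counts, or 29.8, 164, 346 and 364 per 100000. As with ZNF644, control replicate 1 was far below control replicate 2 and both were below the knockdowns. The means were 96.9 ± 94.9 and 355 ± 12.5 per 100000, the log2 fold change was 2.08 ± 0.77, and the edgeR adjusted p was 0.255. The fold change was 1.29 with control replicate 1 left out and 4.16 with control replicate 2 left out, and both passed.

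A single circle carried 94.1% of the ZNF800 counts. It lies at chr7:127373342-127377329 on the minus strand, joins exons of 1693 and 144 nt into 1837 nt, and had 98, 870, 932 and 1350 counts. The intron between these exons was itself seen as a circle, at chr7:127375035-127377185, with 0, 0, 7 and 9 counts and 2151 nt.

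ZNF638, a nuclear matrix protein that brings the HUSH silencing complex to unintegrated retroviral DNA, was the only ZNF gene past the threshold in any of the main tests, and it passed for the use of its circles and not for its level. The gene as a whole had 850, 1192, 523 and 655 counts, means of 197 ± 24.2 and 176 ± 12.2 per 100000, and groups that overlapped. Its log2 fold change was 0.13 ± 0.47 with an edgeR adjusted p of 0.924. The sign turned under library-size scaling, to −0.24, and without control replicate 1, to −0.11. Without control replicate 2 it was 0.56 and passed, at an edgeR adjusted p of 0.011.

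The test of circle use asked whether the circles of a gene changed by unequal factors. It covered 33 ZNF genes with 238 circles, and 1 passed, ZNF638 with an adjusted p of 0.0402 over 28 circles (edgeR's diffSpliceDGE, F test per gene), where 4.08% of all 2327 genes passed. At an unadjusted p under 0.05, 7 of the 33 ZNF genes were called and 17.7% of all genes. The ZNF638 call is close to the threshold and does not hold under every choice. The adjusted p was 0.0509 when library totals were taken over all circles, 0.0505 with library-size scaling and 0.178 with Simes' method. It was 0.963 without knockdown replicate 1 and 0.950 without knockdown replicate 2. After ZNF638 the smallest adjusted p in the edgeR test belonged to ZNF124 (0.151), ZNF680 (0.183) and ZNF382 (0.238).

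The ZNF638 circles divide by a 1519-nt exon. Circles with this exon had 85.9%, 74.2%, 48.4% and 46.4% of the gene's counts, or 155, 159, 89.5 and 77.8 per 100000. The other circles of the gene had 25.4, 55.2, 95.5 and 89.9 per 100000, so both sets separated the groups, in opposite directions. This division was made after the values had been seen and was not tested. Of the 10 tested circles with the exon 8 had a log2 fold change below 0 and the median was −0.63. Of the 18 without it 11 were above 0 and the median was 0.63.

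The most counted ZNF638 circle is that exon alone, chr2:71348753-71350271, with 379, 484, 97 and 133 counts. It held 44.6%, 40.6%, 18.5% and 20.3% of the gene's counts, and its log2 fold change was −1.34 ± 0.34. The longer chr2:71348753-71370005 had 147, 174, 88 and 84 counts, a log2 fold change of −0.32 ± 0.37. Downstream of the long exon, chr2:71363153-71370005 had 2, 42, 62 and 76 counts (2.43 ± 0.87) and chr2:71396141-71418639 had 0, 12, 34 and 51 (3.51 ± 0.92). The single-exon circle at chr2:71426460-71427414 had 2, 11, 22 and 29 (2.63 ± 0.62). In these 3 downstream circles control replicate 1 was the lowest library. None of the 5 passed as a circle of its own, with edgeR adjusted p between 0.149 and 0.687. Circles that name ZNF638 together with a second annotated gene were not included and had 247, 576, 213 and 292 counts.

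**Figure D4:**
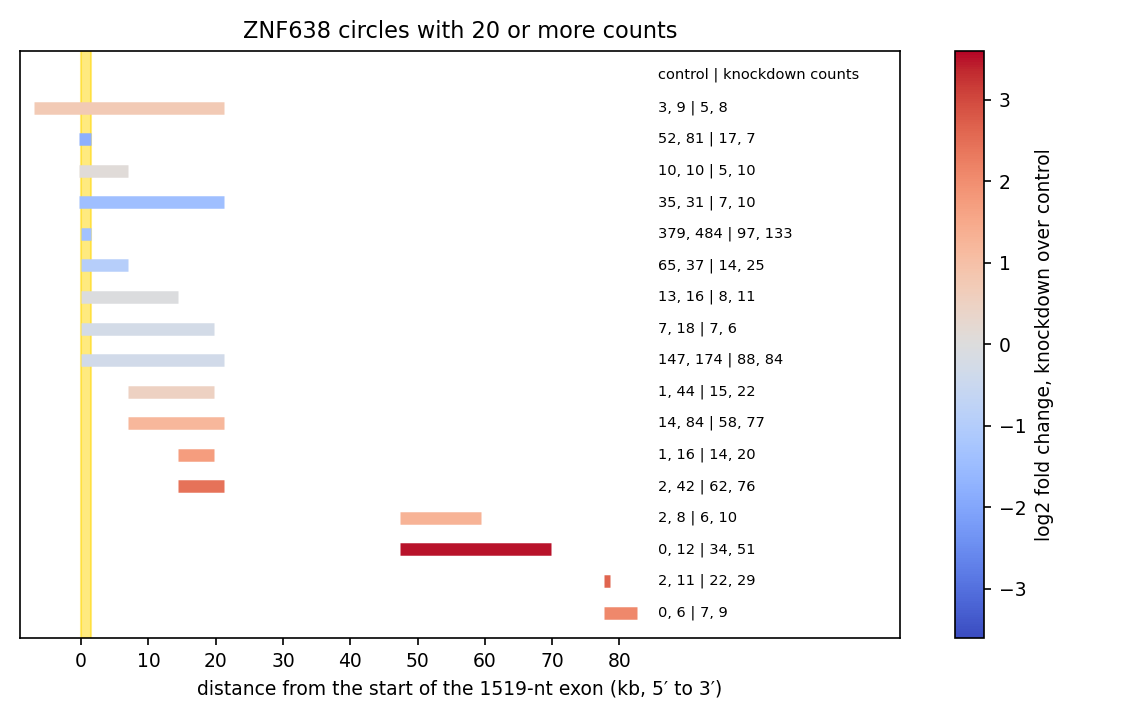
Circles of ZNF638 with at least 20 counts, drawn by distance in kb from the start of the 1519-nt exon (shaded) and coloured by log2 fold change of knockdown over control, with the counts of both control and both knockdown libraries at the right. Blue bars, lower in the knockdown, all include the shaded exon, and the bars that start beyond it are red.

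ZNF124 and ZNF782 encode KRAB zinc finger proteins, and both gave circles with alternative forms of their long exon. ZNF124 had 748, 696, 177 and 370 counts, means of 142 ± 23.5 and 78.7 ± 22.7 per 100000, and lower values in both knockdown libraries (log2 fold change −0.52 ± 0.44, edgeR adjusted p 0.606). Without control replicate 1 the log2 fold change was −0.48. Its main circle, chr1:247155566-247159813, joined exons of 1652, 61 and 127 nt in the first of 3 listed isoforms and had 702, 641, 136 and 292 counts. A circle with an overlapping 998-nt exon in its place, chr1:247156406-247159813, had 14, 44, 31 and 66 counts. Circles with the 1652-nt exon thus made up 95.1%, 92.5%, 77.4% and 79.2% of the gene, a description of values already seen.

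ZNF782 had 210, 528, 452 and 740 counts. Per 100000 these were 44.5, 94.9, 160 and 189, so the knockdowns lay above both controls. The means were 69.7 ± 35.6 and 175 ± 20.9, with a log2 fold change of 1.58 ± 0.54 and an edgeR adjusted p of 0.216. It passed with either control left out, at 1.06 without replicate 1 and 2.57 without replicate 2. The main circle, chr9:96817365-96827181, holds exons of 2414 and 102 nt and had 160, 412, 323 and 545 counts. Circles that end at a second donor, such as chr9:96816809-96819778 with 12, 11, 35 and 52 counts and a 2970-nt exon, had 12.4%, 4.73%, 16.6% and 14.3% of the gene.

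ZNF451, a SUMO ligase, had 545, 917, 309 and 442 counts spread over 110 circles. Its means were 140 ± 34.9 and 111 ± 2.75 per 100000 (log2 fold change −0.05 ± 0.46, edgeR adjusted p 0.971), and the sign turned with a replicate block. It also turned without control replicate 2, to 0.54, and passed there. The most counted circle, chr6:57124734-57142095, has 6 exons and 818 nt and held 19.5% of the gene. Circles with the 1604-nt exon had 69.0%, 66.2%, 68.0% and 62.7%, a share that overlapped between the groups, unlike the long exon of ZNF638.

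ZNF532, known as a fusion partner of NUT in midline carcinoma, had 635, 548, 356 and 497 counts. Per 100000 the groups overlapped, with means of 116 ± 25.4 and 127 ± 0.951 (log2 fold change 0.45 ± 0.42, edgeR adjusted p 0.643). It passed with either control left out, at 0.54 and 0.51. Its main circle, chr18:58934433-58953799, has no long exon: it joins 4 exons into 804 nt and had 322, 334, 172 and 253 counts. The second, chr18:58918271-58920633, is a 2363-nt exon alone, with 130, 60, 72 and 89 counts.

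ZNF131, a BTB domain transcription factor, had 379, 688, 322 and 535 counts, and its groups overlapped. The means were 102 ± 30.7 and 125 ± 16.3 per 100000 (log2 fold change 0.58 ± 0.47, edgeR adjusted p 0.593). Without control replicate 2 it was 1.24 and passed, and without control replicate 1 it was 0.20 and did not. The main circle, chr5:43122039-43161931, has 967 nt and had 154, 248, 97 and 144 counts. Intron circles took 25.4% of its counts, the Alu-like junction printed above included.

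ZNF518A gave the longest main circle of the 10 most counted genes, 4403 nt at chr10:96155326-96160402 with a 4206-nt exon. That circle had 99, 270, 209 and 224 counts, 80.0% of the gene. The gene's means were 45.3 ± 27.2 and 78.8 ± 14.1 per 100000 (log2 fold change 1.04 ± 0.53, edgeR adjusted p 0.402), with controls of 26.0 and 64.5. The fold change was 0.46 with control replicate 1 left out and did not pass, and 2.18 with control replicate 2 left out, where it passed.

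ZNF236 was the opposite case, with circles of short exons. It had 184, 140, 177 and 240 counts, means of 32.1 ± 9.75 and 62.0 ± 0.813 per 100000, a log2 fold change of 1.29 ± 0.38 and an edgeR adjusted p of 0.154, and it passed with either control left out (1.48 and 1.26). Both knockdown libraries were above both controls. The most counted circle, chr18:76849526-76851939, has 308 nt and held 23.1% of the gene with 45, 37, 37 and 52 counts, and the next circles start at the same base and end further on.

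**Figure D5:**
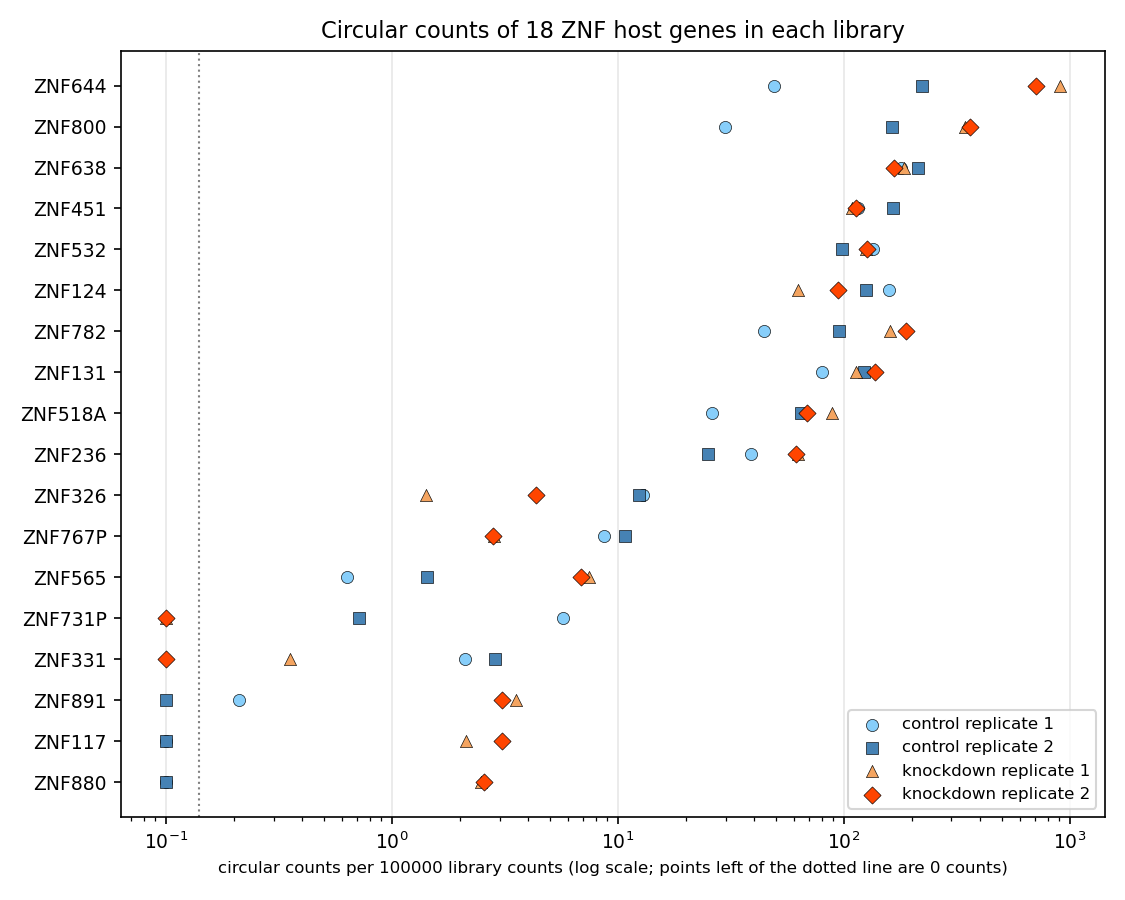
Circular counts per 100000 library counts (log scale) of 18 ZNF genes, the 10 most counted and the 4 of smallest p-value in each direction, with 1 marker per library, and libraries with 0 counts left of the dotted line. In ZNF644 and ZNF800 control replicate 1 lies far below control replicate 2 and both lie below the knockdown libraries, while the 4 markers of ZNF638 nearly coincide.

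The 4 genes of smallest p-value among those with higher values in the knockdown had few counts. ZNF565, on chromosome 19, had 3, 8, 21 and 27, means of 1.04 ± 0.567 and 7.17 ± 0.364 per 100000, and the smallest edgeR adjusted p of all ZNF genes, 0.0586 (log2 fold change 3.01 ± 0.66). It passed with control replicate 1 left out (2.46) and with control replicate 2 left out (4.00). Intron circles held 96.6% of its counts. Of 17 such circles, 15 lay within chr19:36236031-36238437, with 3, 2, 21 and 25 counts, a window drawn after the values had been seen. Over part of this window lie circles of ZNF146, on the opposite strand. The exon circle at chr19:36235659-36237230 had 1, 3, 5 and 6 counts. The other ZNF146 circles there with at least 10 counts went the other way. Those at chr19:36218145-36236339, chr19:36215131-36237489 and chr19:36234725-36236742 had 16, 14 and 11 counts in control replicate 1. Each had 0 in the remaining libraries. Which gene the reads came from was not tested.

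ZNF891, ZNF117 and ZNF880 had almost no control counts, and in each the counts came mainly from a circle listed as 1 long exon. ZNF891 had 1, 0, 10 and 12 counts, all in the 1737-nt circle chr12:133120288-133122024. The ratio of its summed counts per 100000 was 33.6, with an exact 95% interval from 5.43 to 1388 for counting error only (edgeR adjusted p 0.0921). ZNF117 had 0, 0, 6 and 12 counts, at least 4.42-fold higher in the knockdown against the limit of 3 counts per library (edgeR adjusted p 0.104). Its circle of 2986 nt at chr7:64972037-64975022 had 0, 0, 4 and 11. The splice motif listed for this ZNF117 circle was AG-AT and not the AG-GT of the main ZNF638 circle. ZNF880 had 0, 0, 7 and 10 counts, at least 4.29-fold higher (edgeR adjusted p 0.110), with 0, 0, 5 and 10 in the 1894-nt circle chr19:52383849-52385742. All 3 genes passed with either control left out.

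In the opposite direction the smallest p-values belonged to ZNF326, ZNF731P, ZNF767P and ZNF331. ZNF326, a subunit of the DBIRD complex that links transcript elongation to splicing, had 61, 69, 4 and 17 counts. Its means were 12.7 ± 0.364 and 2.88 ± 2.08 per 100000, with a log2 fold change of −1.75 ± 0.54 and an edgeR adjusted p of 0.171. It passed with control replicate 1 left out (−1.82) and with control replicate 2 left out (−1.46). The single-exon circle chr1:90005133-90007750 had 14, 17, 1 and 11 of these counts, and the gene had 25 circles in all. The controls reached similar totals partly through different circles. The intron circle chr1:90001544-90003828 had 14, 0, 0 and 0 counts and the exon circle chr1:90030691-90033095 had 13, 0, 0 and 0. The circle chr1:89998110-90010286 had 1, 14, 1 and 2.

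ZNF767P, a long noncoding RNA in the file, had 41, 60, 8 and 11 counts (log2 fold change −1.48 ± 0.50, edgeR adjusted p 0.208), of which chr7:149549193-149558839 had 10, 15, 5 and 4. ZNF331, an imprinted gene, had 10, 16, 1 and 0, a ratio of 17.01 in favour of the controls with an exact 95% interval from 2.79 to 697 (edgeR adjusted p 0.299). The pseudogene ZNF731P had 27, 4, 0 and 0 (edgeR adjusted p 0.194). Its control mean was 3.52 times the knockdown limit of 3 counts per library. Control replicate 2 alone, at 0.719 per 100000, lay below the limits of both knockdown libraries, 1.06 and 0.768. All 27 counts of control replicate 1 were in the intron circle chr1:247196047-247197601, so this difference rests on the library with the highest intron circle share, whose part in it was not tested. Without control replicate 1, ZNF767P (−1.75) and ZNF331 passed and ZNF731P did not. Without control replicate 2, ZNF731P passed and ZNF767P (−1.02) and ZNF331 did not.

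Circle by circle, 279 ZNF circles were tested and none passed in edgeR, where 0.00% of all 21576 circles passed. At an unadjusted p under 0.05, 34 were higher (9.42% of all circles) and 10 were lower (4.00%). DESeq2 called 20 higher and 1 lower, 7.53% of the ZNF circles against 5.03% of all circles. The median log2 fold change was −0.18, against −0.39 for all circles, with 128 above 0 (45.9%, against 40.2% of all circles) and 151 below. The smallest edgeR adjusted p was 0.105, for the 1527-nt single-exon circle of ZNF260 at chr19:36514173-36515699, which had 0, 0, 11 and 13 counts. ZNF260 as a gene had 19, 9, 16 and 19. This circle was singled out after its values had been seen.

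Genes that work with ZNF proteins or resemble them were read from lists chosen by name. Of 20 genes of the KRAB co-repressor machinery, 14 had enough counts, 1 passed (higher) and 0 were lower, with a median log2 fold change of 0.22. Of all host genes 1.47% passed as higher and 0.0338% as lower, and their median was −0.27. All of the 14 but CBX3 and HDAC1 (16 and 28 counts) had at least 40 counts, and host genes of that depth had a median of −0.10. The gene that passed was ATRX, a chromatin remodeler of heterochromatin. It had 92, 139, 259 and 392 counts, means of 22.2 ± 3.89 and 96.0 ± 6.20 per 100000, a log2 fold change of 2.40 ± 0.44 and an edgeR adjusted p of 0.0339. With the newer dispersion method of edgeR the adjusted p was 0.0841, without knockdown replicate 1 it was 0.180, and without knockdown replicate 2 it was 0.331.

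None of the related zinc finger lists had a gene past the threshold in edgeR. All host genes had a median log2 fold change of −0.27, with 39.9% above 0. The 9 ZKSCAN and ZSCAN genes had a median of −1.54 and 8 of them were below 0. All but the most counted of these had between 10 and 30 counts, and host genes with 10 to 39 counts had a median of −0.68. ZSCAN20 and ZSCAN23 each had 11, 0, 0 and 0 counts. The most counted, ZKSCAN1, a widely studied host of a circular RNA, had 242, 179, 28 and 37 counts (−1.76 ± 0.37, edgeR adjusted p 0.0503). The 15 ZBTB genes had a median of −0.35, with ZBTB44 at 2113, 3464, 2011 and 3154 counts (0.79 ± 0.58, edgeR adjusted p 0.544). The 7 ZFP genes had a median of −0.97, with ZFP30 at 5, 13, 1 and 4, and the 10 KLF and SP genes −0.35, with SP3 at 102, 156, 76 and 103.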

How the data were processed

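The authors deposited whole-number counts, not normalized, for each back-splice position. CIRI-long, a caller of circles from long reads, is named per the file's columns. DESeq2 and the build GRCh38.p14 are named in the submitters' processing notes. The caller's version, the aligner and the filters are not given in the sources used here. The deposited circle lengths and exon coordinates, those of the first isoform listed for a circle, were used as another measure, and a second table with columns named CPM, each of which sums to 100000, was not used. Coordinates are those of the deposited file, counted from 1.

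Counts of circles that name 1 gene and are not antisense were summed per gene. Genes and circles with at least 10 counts were tested over the whole table with edgeR's quasi-likelihood test (edgeR 4.0.16, R 4.3.3, limma 3.58.1), TMM normalization and Benjamini-Hochberg adjustment at 0.05. Circle use was tested with diffSpliceDGE, and DESeq2 1.42.0 was an alternative. The tests were checked on simulated data with large planted changes only, so smaller changes and calls near the threshold were not covered. Library sizes were first taken over all circles and then over the tested features, a choice settled with the outcome of either in view. It moved the adjusted p of ZNF638 from 0.0509 to 0.0402, across the threshold. Standard errors were derived from the F statistic. Values of single libraries were tested by exact permutation, two-sided. Replicates are labelled as separate, and p-values measure only the spread between these samples. Copies amplified without molecular identifiers are not independent molecules, so intervals and limits cover counting error only.

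The members and lists were chosen with earlier results of these data known. Named genes were the 10 most counted, the 4 of smallest p-value in each direction, genes past a threshold, and up to 3 on each side of the count limit. From each list the genes past the threshold were named, or else the most counted. Other genes named were chosen after their values were seen. Same-numbered libraries correlated at 0.0620 in their deviations over 3365 host genes and at 0.120 over 52 ZNF genes, and the numbers were treated as names.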

Additional observations from a re-analysis of the deposited data

Results flagged for a closer look

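Some ZNF circles stayed out of every comparison because their position carries more than 1 gene name. There were 703 such circles with a ZNF gene among the names, with 7844 counts, or 438, 457, 467 and 489 per 100000 library counts. The knockdown mean, 478 ± 15.5 per 100000, was above the control mean, 448 ± 13.5 (SD, n = 2 each, exact permutation p = 0.33). Among them, circles that name ZNF280D together with an unnamed overlapping gene had 26.0, 36.5, 53.4 and 65.3 per 100000, with means of 31.3 ± 7.38 in controls and 59.3 ± 8.41 in knockdowns (exact permutation p = 0.33). Both are listed because values above both controls appeared in counts that the comparisons do not use. The more counted circles that name ZNF638 or ZNF544 with a second gene overlapped between the groups. Their control and knockdown means were 77.9 ± 36.2 and 75.1 ± 0.402 per 100000 for ZNF638, and 45.3 ± 8.40 and 51.1 ± 2.32 for ZNF544.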

How the results depend on the processing

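Shares in brackets are those of all features called under the same setting. The number of ZNF circles tested was 279 in the main test, 1735 with no filter and 236 with exon circles only. It was 165 where 2 libraries had at least 5 counts and 90 where the total was at least 40. The number of ZNF genes past the threshold, 0 in the main edgeR test (1.51%), was 3 with DESeq2 (2.76%), 8 without a count filter (3.19%), 7 with a replicate block (5.31%) and between 0 and 43 when a library was left out (up to 35.8%). For ZNF circles, also 0 (0.00%), it was 21 with DESeq2 (5.03%), 9 with no filter (0.248%), 20 where 2 libraries had at least 5 counts (12%), 9 where the total was at least 40 (12.5%), 6 with exon circles only (2.79%), 29 with a replicate block (7.66%) and between 0 and 91 with a library left out (up to 28.8%). For circle use, 1 in the main test (4.08%), it was 0 with library-size scaling (3.82%), library totals over all circles (3.95%) or Simes' method (2.41%), 3 with at least 40 counts (17.2%), 13 with the block (23.7%) and between 0 and 17 with a library left out (up to 45.7%). The adjusted p of ZNF638 circle use was 0.0505, 0.0509 and 0.178 with library-size scaling, all-circle totals and Simes' method, 5.70e-08 with the block, 0.00141 with at least 40 counts, and between 5.16e-71 and 0.963 with a library left out. Log2 fold changes that changed sign were those of ZNF451 (0.0050 with the block, between −0.39 and 0.54 with a library left out), ZNF638 (−0.24 with library-size scaling, between −0.11 and 0.56 with a library left out), ZFP30 (between −1.96 and 0.068) and the most counted ZNF532 circle (between −0.35 and 0.27). For single genes and circles, 458 of the alternative values kept direction and side of the threshold, 95 newly passed, 3 no longer passed and 6 changed sign. The cause was not tested. The replicate numbers mark no stated pairing.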

Other observations

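A few ZNF circles matched a whole intron exactly, from the end of an annotated exon of another ZNF circle to the start of the next. There were 8 of them in 6 genes, with 39 counts in all. The ZNF800 intron described above had 0, 0, 7 and 9 counts. The ZNF283 intron at chr19:43835593-43837052 had 0, 9, 0 and 0. The remaining 6 circles, in ZNF236, ZNF326, ZNF451 and ZNF667, had between 1 and 4 counts each.

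Antisense circles over ZNF genes, 371 in number, had 1064 counts, or 100, 52.1, 43.5 and 45.3 per 100000 library counts, highest in control replicate 1.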
